A study of Mus musculus with 6 samples.

Results

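The S100 genes encode small proteins that bind calcium through EF-hands, and 7 of them were followed across B cell progenitors of mouse bone marrow: S100a4, S100a6, S100a8, S100a9, S100a10, S100a11 and S100a13. They are 7 of the 17 S100 family genes and of the 31053 genes in the feature lists. The members were selected on their measured levels in these same libraries, so their levels are a description and carry no test. Marrow cells pooled from 2 C57BL/6 mice per group had been sorted as positive for B220 and negative for IgM, IgD and markers of T cells, NK cells and myeloid cells, and each pool gave 1 single-cell 5' gene-expression library and 1 V(D)J library. The young group was wild type (WT) at 12 weeks, the aged group WT at 100 weeks, and the IkB-deficient group nfkbie-/-nfkbib-/-nfkbia+/- at 12 weeks, that is without Nfkbie and Nfkbib and with 1 copy of Nfkbia, all of them genes of NF-kB inhibitors. Both comparisons, aged with young and IkB-deficient with young, share the young library.

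Most S100 proteins act as dimers: calcium opens a hydrophobic face that binds a partner such as an annexin, a myosin or a ubiquitin ligase adaptor. S100A8 and S100A9 pair as calprotectin, an abundant cytosolic protein of neutrophils that is released in inflammation and is read by Toll-like receptor 4 and the receptor RAGE. S100A4 and S100A6 are known from motile, myeloid and activated cells, whereas S100A10, the partner of annexin A2, is unusual in having lost the ability to bind calcium. In early B cells the heavy chain gene is rearranged first, cells then divide under the pre-B cell receptor, and the light chain gene is rearranged once they rest.

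Cells were placed in 8 stages by their productive receptor contigs and a few transcripts. Cells with at least 3 UMIs (unique molecular identifiers, each 1 counted transcript) of Mpo, Elane and Prtn3 formed the granule gene stage, and other cells with at least 3 Siglech UMIs the Siglech stage. The rest were called cycling at 3 or more summed UMIs of Mki67, Top2a, Cdk1 and Birc5, and resting below that, and were divided by a heavy and a light chain contig. Resting cells with neither chain numbered 1202 young, 1962 aged and 3832 IkB-deficient, and those with a heavy chain only 3461, 1805 and 667. Levels are in CPM (a gene's UMIs divided by the stage's UMIs of all genes other than antigen receptor genes, on the usual CPM scale). The summed level of the 9 pro-B and pre-B markers lay between 15147 and 21233 CPM in the resting stages without a heavy chain. In the Siglech stage it lay between 317 and 468, and the plasmacytoid dendritic set, which includes Siglech, stood at 16914 to 21776. The granule gene stage held 8 young cells with 6840 CPM of basophil or mast cell markers, so no ratio to young was taken there.

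The 3 libraries retained 8786, 7357 and 8825 cells in the order young, aged and IkB-deficient, with medians of 3806, 4312 and 6419 UMIs. Heavy chain contigs were found in 75.2%, 53.3% and 11.3% of cells. The targeted genes were lowest under IkB deficiency: Nfkbie at 2.64 CPM against 105 in young cells, Nfkbib at 19.0 against 56.2 and Nfkbia at 242 against 472. Between 85 and 108 barcodes were shared by a pair of libraries. Cells with Xist and no Y-linked UMI made up 0% of the young, 24.0% of the aged and 90.9% of the IkB-deficient library, and cells with Y-linked UMIs and no Xist 63.1%, 43.1% and 0.0113%. For IkB deficiency, genotype and sex therefore cannot be told apart, and both sexes were present among aged cells. With 1 library per group there is no replicate error, and all 95% intervals below cover counting error only.

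All 7 members lie on chromosome 3, as do 14 of the 17 family genes (RefSeq, GRCm38.p6, the mm10 build). S100a13 (90514233 to 90524581), S100a4 (90603770 to 90606045), S100a6 (90612894 to 90614414), S100a8 (90669071 to 90670034) and S100a9 (90692630 to 90695721) stand within 181 kb. S100a11 (93520496 to 93526288) and S100a10 (93555117 to 93564645) are neighbours 2.82 Mb away. The 250 bases before the RefSeq start are shown for S100a6, which differed between libraries in most stages, for S100a8, whose transcripts were held by a few cells, and for S100a11, which was lower in IkB-deficient cells. They are chr3:90612644-90612893, chr3:90668821-90669070 and chr3:93520246-93520495, all on the plus strand, 5' to 3', with capitals for matches to GAGGAA (the core of the site of the myeloid and B cell factor PU.1, here on either strand) and TGANTCA (the AP-1 site).
S100a6: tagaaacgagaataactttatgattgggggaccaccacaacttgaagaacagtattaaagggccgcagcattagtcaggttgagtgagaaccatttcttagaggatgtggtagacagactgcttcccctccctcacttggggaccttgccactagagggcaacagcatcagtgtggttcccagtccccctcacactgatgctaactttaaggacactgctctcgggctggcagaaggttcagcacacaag
S100a8: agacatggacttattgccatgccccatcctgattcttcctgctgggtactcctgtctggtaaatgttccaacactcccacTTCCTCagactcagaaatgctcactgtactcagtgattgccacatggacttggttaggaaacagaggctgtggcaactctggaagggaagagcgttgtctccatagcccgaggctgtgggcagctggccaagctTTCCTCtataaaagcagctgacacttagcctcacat
S100a11: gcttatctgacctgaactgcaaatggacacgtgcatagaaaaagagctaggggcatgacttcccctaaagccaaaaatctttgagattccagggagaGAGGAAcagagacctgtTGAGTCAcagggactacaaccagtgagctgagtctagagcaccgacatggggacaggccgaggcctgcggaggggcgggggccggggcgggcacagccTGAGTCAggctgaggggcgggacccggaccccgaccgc
A window was at hand for 6 of the 7 members. GAGGAA or its complement occurred at 170 and 36 bases before the S100a8 start and 153 bases before the S100a11 start, and TGANTCA at 136 and 38 bases before the S100a11 start. Among 32851 windows of the same length, 23.3% held GAGGAA and 6.75% held TGANTCA. The NF-kB decamer consensus was in none of the 6 windows and in 3.90% of all windows, and CCCNNGGG, the core of the EBF1 site, was in none of the 6 and in 11.8% of all. The motifs do not overlap one another in these windows, and a match is only a match of letters.

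S100a6 encodes calcyclin, which binds annexins and the ubiquitin ligase adaptor CACYBP, and, with S100a8 and S100a9 set aside because a few cells held their transcripts, its ratios between libraries reached further from 1 than those of S100a10, S100a11 and S100a13. Among resting cells with neither chain young cells held 69.4 CPM, aged cells 291 and IkB-deficient cells 73.5. The aged library was alone in being high there, 4.19-fold over young (95% interval 3.76 to 4.69), and the IkB-deficient library stood at 1.06-fold of young (0.945 to 1.19). That ratio depended on which cells were kept: on the log2 scale it was 0.08, and it ran from -0.04 to 1.64 over 17 settings, with the highest value when cells of another lineage were left out and 58 IkB-deficient cells remained. Among cycling cells without a heavy chain the levels were 26.3, 160.5 and 49.7 CPM, 6.09-fold (5.08 to 7.36) and 1.89-fold (1.57 to 2.28) above young. Both libraries were above young in this stage, the aged one by more.

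Stages with a heavy chain held little S100a6. Resting cells with a heavy chain only gave 2.95 CPM in young (34 UMIs in 3461 cells), 25.9 in aged (151 UMIs) and 19.4 in IkB-deficient cells (57 UMIs). The ratios were 8.77 (6.01 to 13.1) for aged and 6.57 (4.23 to 10.4) for IkB-deficient cells, and no young cell, 12 aged and 2 IkB-deficient cells held 3 or more S100a6 UMIs. With both chains the levels were 3.07, 29.7 and 2.93 CPM, from 15, 94 and 1 UMIs. Of the 94 aged UMIs 31 came from 1 cell, which also held 42 UMIs of the monocyte or macrophage set, and without it the aged level was 20.04 CPM (15.4 to 25.6). Cycling cells with a heavy chain gave 2.97, 11.6 and 2.42 CPM, 3.92-fold higher in aged (2.83 to 5.49), while the IkB-deficient interval spanned 1 (0.286 to 1.89). Of the 53 young UMIs in that stage 19 came from 1 cell with 37 UMIs of the monocyte or macrophage set. Without that cell the young level was 1.91 CPM (1.32 to 2.67). Without their own top cells the aged level was 9.83 CPM (8.10 to 11.8) and the IkB-deficient level 2.03 (0.660 to 4.74). The IkB-deficient 2.42 CPM rests on 6 UMIs, and its interval (0.888 to 5.27) spans the young level with and without the top young cell. All these removals of a top cell were chosen after seeing the data. Resting cells with a light chain only held 3 young, 30 aged and 82 IkB-deficient UMIs, or 10.6, 74.7 and 34.5 CPM, and the 3 young UMIs leave wide ratios of 7.04 (2.19 to 36.1) and 3.25 (1.07 to 16.1).

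The Siglech stage held the highest S100a6 level of the 7 stages compared, in all 3 libraries. Young Siglech cells held 679.6 CPM, aged ones 1112 and IkB-deficient ones 388. Aged cells stood 1.64-fold above young (1.56 to 1.72), and IkB-deficient cells 1.75-fold below it (1.67 to 1.84). Within a library the Siglech level was 230-fold that of resting heavy chain cells in young (164 to 333), 42.9-fold in aged (36.5 to 50.8) and 20.004-fold in IkB-deficient cells (15.4 to 26.5). Cox6a2, another gene of the plasmacytoid set, went from 2433 CPM in young to 1943 in aged and 675 in IkB-deficient Siglech cells, and Ccr9, a homing receptor of the same set, from 489 to 295 and 219. The monocyte or macrophage set in these cells summed to 1349, 1473 and 690 CPM, and the part of any of these genes' cells in the S100a6 values was not tested. In the granule gene stage S100a6 stood at 591 CPM in 76 aged and 204 CPM in 122 IkB-deficient cells.

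**Figure D1:**
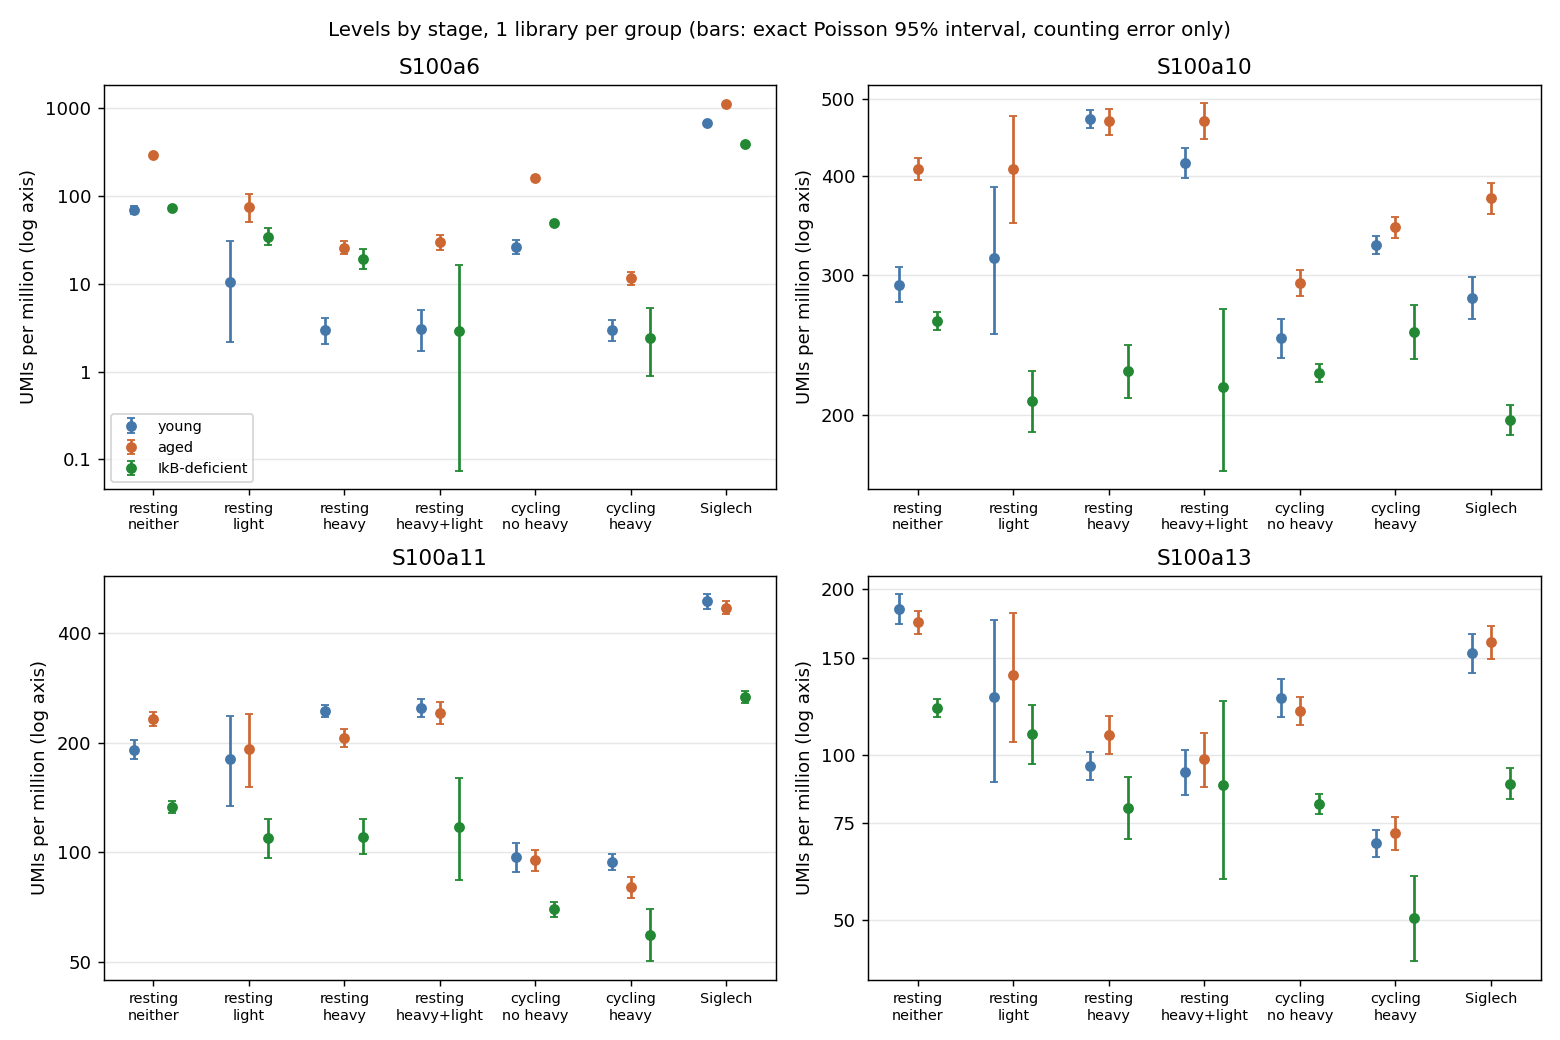
Levels of S100a6, S100a10, S100a11 and S100a13 in CPM (log axes that differ between panels) by stage, 1 point per library, with exact Poisson 95% intervals for counting error. S100a6 runs from 2.42 CPM in IkB-deficient cycling heavy chain cells to 1112 in aged Siglech cells, and the IkB-deficient points of S100a11 and S100a13 are the lowest of the 3 in every stage shown.

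After every cell was thinned to 2000 UMIs, the share of resting cells with neither chain that held S100a6 was 6.89% (young, 5.46% to 8.56%), 24.2% (aged, 22.2% to 26.3%) and 8.89% (IkB-deficient, 7.99% to 9.85%). Thinning left out 113, 200 and 107 shallower cells, and the unthinned shares were 12.4%, 36.6% and 21.0%, at medians of 4016, 4205 and 5546 UMIs. Resting heavy chain cells, at medians of 3143, 2868 and 3447 UMIs, had lower shares. They were 0.408% (0.217% to 0.696%), 2.86% (2.09% to 3.83%) and 2.50% (1.44% to 4.03%) after thinning, with 271, 269 and 27 cells left out. Unthinned they were 0.925%, 4.76% and 6.90%. In the Siglech stage 61.0%, 79.8% and 49.97% of thinned cells held S100a6. The aged share was above the young one in these 3 stages. The IkB-deficient share was above young in resting heavy chain cells and below it in the Siglech stage, and with neither chain its interval overlapped that of young.

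**Figure D2:**
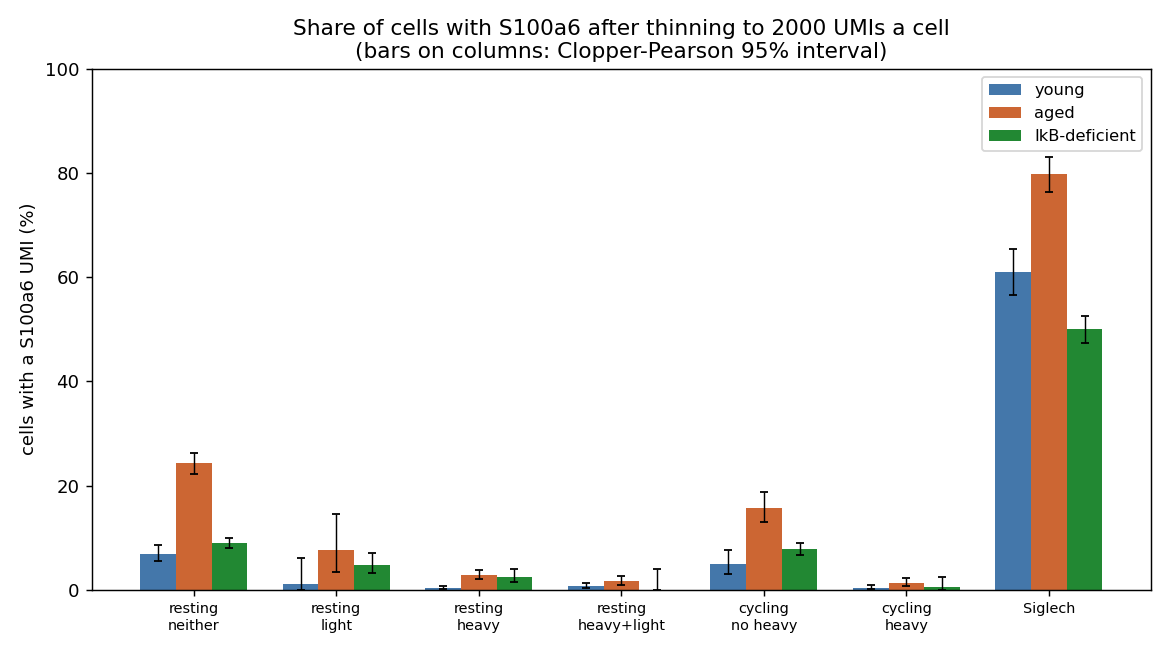
Percent of cells with at least 1 S100a6 UMI after thinning to 2000 UMIs a cell, by stage and library, with Clopper-Pearson 95% intervals. The aged column stands highest in the resting cells with neither chain (24.2%), in cycling cells without a heavy chain (15.7%) and in the Siglech stage (79.8%).

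The ratio of S100a6 to transcripts of the plasmacytoid set was read in each stage, and it depended on the transcript. Against Ccr9, aged Siglech cells held 3.76 S100a6 UMIs per UMI, aged resting heavy chain cells 21.6 (151 to 7 UMIs) and aged resting cells with neither chain and 3 or more surrogate light chain UMIs 59.2 (1362 to 23). Against Cox6a2 the same 3 ratios were 0.572, 0.677 (151 to 223) and 13.4 (1362 to 102). In young cells they were 1.39, 1.89 and 30.6 against Ccr9, and 0.279, 0.0465 and 5.28 against Cox6a2. In IkB-deficient cells they were 1.77, 57 (57 to 1 UMIs) and 198.6 (993 to 5) against Ccr9, and 0.575, 0.663 and 5.95 against Cox6a2. These cells with neither chain held more S100a6 per UMI of either transcript than Siglech cells did. For resting heavy chain cells the transcripts differed: in aged cells the Cox6a2 ratio was near that of Siglech cells and the Ccr9 ratio above it. Young Cox6a2 itself stood at 63.5 CPM in resting heavy chain cells and 6.36 in surrogate light chain cells with neither chain. Young Ccr9 stood at 1.56 and 1.10 CPM, so the Cox6a2 ratios also carry the Cox6a2 level of the stage. The part of free RNA in the low S100a6 level of heavy chain cells was not tested.

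Resting cells with neither chain were then divided by Igll1, Vpreb1 and Vpreb2, the surrogate light chain genes of pro-B and pre-B cells. Cells with at least 3 such UMIs were 82.2%, 80.4% and 85.6% of the stage. Their S100a6 level was 33.5 CPM (young), 183 (aged) and 50.2 (IkB-deficient), 5.46-fold higher in aged (4.61 to 6.49) and 1.497-fold higher in IkB-deficient cells (1.26 to 1.79). Cells below 3 held 298, 728 and 247 CPM, 2.45-fold higher in aged (2.12 to 2.84) and 1.21-fold lower in IkB-deficient cells (1.03 to 1.41). The level in young and IkB-deficient cells thus differed in opposite directions on the 2 sides of the split. Those below 3 also held the NK or innate lymphoid set at 2779, 2026 and 2908 CPM, against 58.3, 49.2 and 47.6 CPM among surrogate light chain cells. That set in the whole stage was at 427, 440 and 386 CPM. The plasmacytoid dendritic set was higher still below 3, at 4120, 4917 and 6509 CPM, against 894, 828 and 1658 among surrogate light chain cells. The monocyte or macrophage set stood at 700, 622 and 476 CPM, against 103, 101 and 32.9. The part of each lineage in the S100a6 level was not tested. When cells with 2 or more UMIs of the neutrophil, monocyte or macrophage, NK or innate lymphoid, or T sets were left out, an alternative chosen after seeing the data, the log2 ratio of the stage was 2.46 in aged and 0.66 in IkB-deficient cells.

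The sexes could be told apart by cell within the aged pool. Among aged resting cells with neither chain, S100a6 was at 484 CPM in cells with Xist alone and 186 CPM in cells with Y-linked UMIs alone, a 2.60-fold difference (2.38 to 2.85). Each pool had 2 mice, so this difference cannot be told apart from one between mice. Aged Y-linked cells still stood above young Y-linked cells, 2.64-fold with neither chain (2.29 to 3.04), 6.56-fold when cycling without a heavy chain (5.28 to 8.25), 8.47-fold with a resting heavy chain (5.22 to 14.2) and 1.46-fold in the Siglech stage (1.36 to 1.56). IkB-deficient Xist cells stood below aged Xist cells, 6.83-fold with neither chain (6.30 to 7.40), 4.47-fold when cycling without a heavy chain (3.97 to 5.02) and 3.23-fold in the Siglech stage (3.08 to 3.38). S100a6 was thus higher in aged cells in the Y-linked comparison with young and in the Xist comparison with IkB-deficient cells, and age and genotype both differ in the latter.

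**Figure D3:**
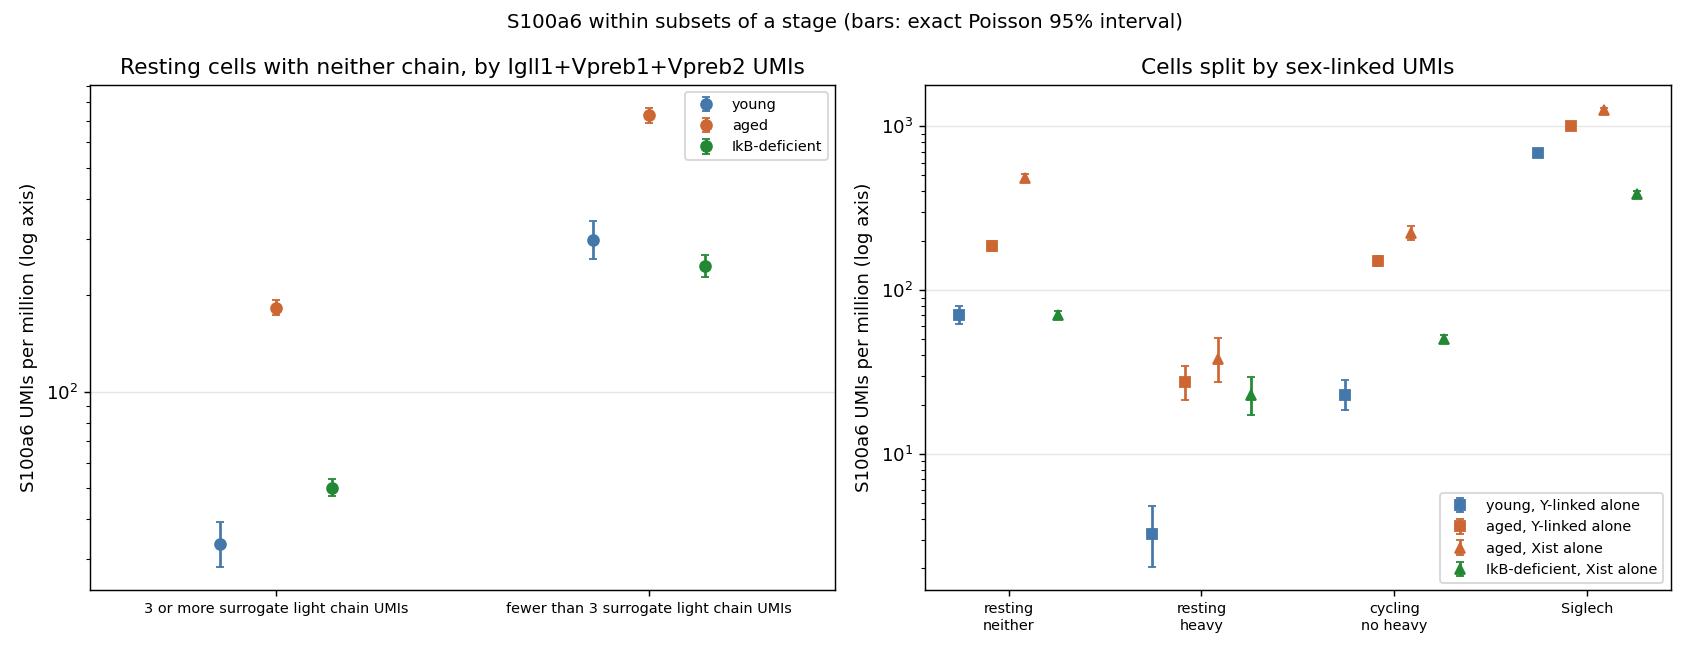
S100a6 in CPM (log axes) with exact Poisson 95% intervals, at left in resting cells with neither chain divided by surrogate light chain UMIs, at right in cells divided by Xist and Y-linked UMIs. The aged points are highest in both divisions at left (183 and 728 CPM), and at right the aged Y-linked cells (186 CPM with neither chain) stand above the young Y-linked cells.

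S100a4, which encodes a protein that binds non-muscle myosin and goes with cell motility, was scarce in all B-lineage stages. In the Siglech stage the young level was 12.7 CPM, the aged 26.4 and the IkB-deficient 6.60, from 47, 131 and 68 UMIs. Aged cells were 2.09-fold above young (1.48 to 2.98) and IkB-deficient cells 1.92-fold below (1.29 to 2.82), the same order of libraries as for S100a6, which lies 6.85 kb away. With neither chain the levels were 3.79, 11.7 and 3.48 CPM, and within that stage most of it was in cells with fewer than 3 surrogate light chain UMIs (23.7, 46.9 and 16.6 CPM). Resting heavy chain cells held 1, 3 and 0 UMIs, and 0 in 667 cells allows a level of up to 1.02 CPM. The granule gene stage held 67.5 CPM in aged and 24.8 in IkB-deficient cells.

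S100a8 and S100a9, the calprotectin genes, were nearly absent from the young and aged libraries and had far more UMIs in the IkB-deficient one. The young library held 9 S100a8 and 15 S100a9 UMIs, the aged library 10 and 21, and the IkB-deficient library 1834 and 2574. Of the 4408 IkB-deficient UMIs of both genes, 4361 were in 4 cells. One was a cycling cell without a heavy chain (1124 and 1600 UMIs), which held the neutrophil granule transcripts Camp (509), Ngp (464), Lcn2 (357) and Ltf (71) together with the B-lineage transcripts Igll1 (56), Cd79a (30) and Vpreb1 (21). Another was a resting cell with neither chain (631 and 945 UMIs), with Ngp (322), Lcn2 (179), Retnlg (139), Ltf (113) and Camp (106) and none of the 3 B-lineage transcripts. The 2 remaining cells were in the granule gene stage, with 45 and 12 S100a8 UMIs, 508 and 150 Elane UMIs and 375 and 108 Prtn3 UMIs.

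Without these 4 cells the IkB-deficient library held 47 UMIs of the pair, against 24 in young and 31 in aged cells. Cells with either transcript numbered 19 in the young library (0.216% of 8786), 27 in the aged (0.367% of 7357) and 49 in the IkB-deficient library (0.555% of 8825). The 49 include the 4 cells, and these shares were not thinned to a common depth. In resting IkB-deficient cells with neither chain, leaving out 1 cell, chosen after seeing the data, took S100a9 from 42.4 to 0.268 CPM and S100a8 from 28.6 to 0.446 CPM, and the summed neutrophil set from 44.1 to 3.08 CPM. The young values in that stage were 0.379 CPM for S100a9 and 0 UMIs for S100a8, which allows up to 0.568 CPM. The large ratios of the stage sums are therefore values of 1 cell each. For S100a9 they were 112-fold with neither chain (30.9 to 925) and 307-fold in cycling cells without a heavy chain (54.9 to 12116, from 1 young UMI). For S100a8 they were 50.3-fold with neither chain and 71.6-fold in cycling cells without a heavy chain. The S100a8 ratios set the young count of 0 to the floor of 3 counts, and their counting intervals without that floor start at 40.8 and 58.2. Apart from the 4 cells, no retained IkB-deficient cell held more than 2 UMIs of the pair.

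**Figure D4:**
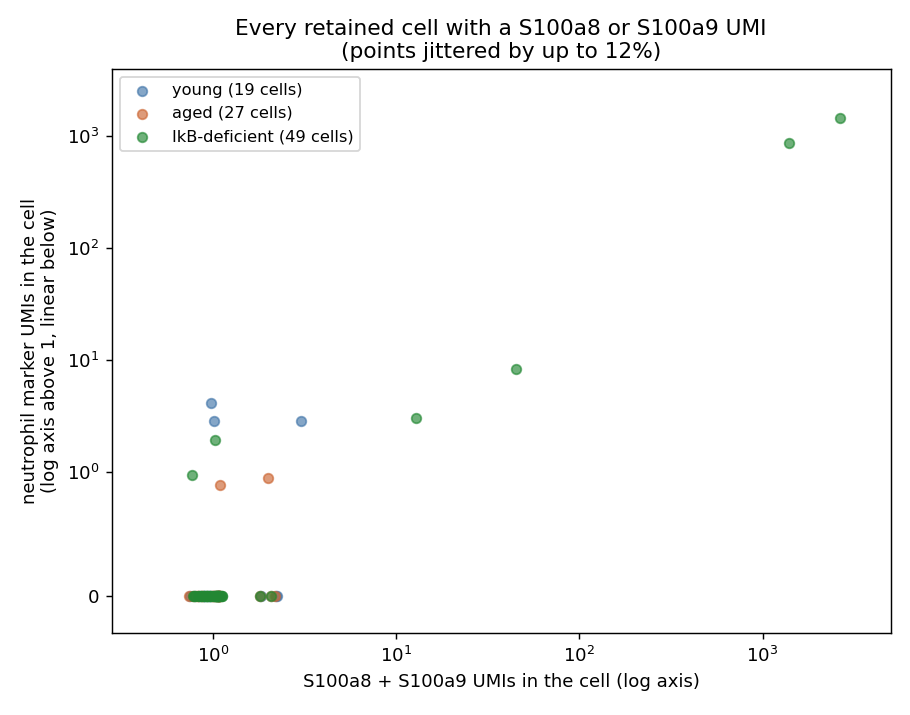
Each retained cell with an S100a8 or S100a9 UMI by its summed UMIs of both genes and of 9 neutrophil markers (log axes, the vertical one linear below 1). The 2 IkB-deficient cells at the upper right hold 1576 and 2724 UMIs of the pair with 921 and 1437 neutrophil marker UMIs, and nearly all other cells hold 1 or 2 UMIs of the pair.

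S100a10, the annexin A2 partner, was found in all stages and, of the 7 compared, was highest in resting cells with a heavy chain in both WT libraries. Resting heavy chain cells held 472 CPM (young), 468 (aged) and 227 (IkB-deficient). The WT libraries were level there (aged over young 0.992, 0.947 to 1.04), and the IkB-deficient library was 2.08-fold lower (1.92 to 2.25). With both chains the levels were 415, 469 and 217 CPM, 1.91-fold lower in IkB-deficient cells (1.52 to 2.45). The share of thinned resting heavy chain cells with S100a10 was 59.5%, 58.7% and 36.9%. The IkB-deficient library differed less from young in resting cells with neither chain (292, 408 and 263 CPM, 1.11-fold lower, 1.05 to 1.18). The same held for cycling cells without a heavy chain (249.9, 293 and 226 CPM, 1.11-fold lower, 1.04 to 1.18). IkB-deficient resting cells with a light chain only were 1.51-fold lower (1.19 to 1.90), and cycling heavy chain cells 1.29-fold lower (1.18 to 1.40). The size of the difference thus did not follow the heavy chain alone. Aged cells with neither chain stood 1.40-fold above young (1.32 to 1.49), and in the Siglech stage the levels were 281, 375 and 197 CPM.

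The change of S100a10 along the stages also differed between libraries. Resting heavy chain cells held 1.62-fold more than resting cells with neither chain in young (1.53 to 1.71) and 1.15-fold more in aged (1.09 to 1.21), whereas in the IkB-deficient library the stage with neither chain was the higher one, 1.16-fold (1.07 to 1.26).

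S100a11, which encodes calgizzarin, a partner of annexin A1, was lower in the IkB-deficient library in every stage compared. In resting heavy chain cells young cells held 244 CPM, aged cells 206 and IkB-deficient cells 110.3, 2.21-fold lower than young in the latter (1.97 to 2.49). With both chains the levels were 248, 241 and 117 CPM, 2.12-fold lower (1.55 to 2.98). In the Siglech stage, where it was highest, it stood at 489, 469 and 267 CPM, 1.83-fold lower (1.73 to 1.95). The smallest of these differences were with neither chain (191, 232 and 133 CPM, 1.44-fold lower, 1.34 to 1.54) and in cycling cells without a heavy chain (96.9, 95.1 and 69.6 CPM, 1.39-fold lower, 1.25 to 1.54). RefSeq also lists a pseudogene of S100a11, and reads that fit both cannot be placed with certainty.

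Resting cells held more S100a11 than cycling cells of the same chain state. Resting heavy chain cells were 2.60-fold above cycling ones in young (2.44 to 2.76), 2.57-fold in aged (2.36 to 2.80) and 1.86-fold in IkB-deficient cells (1.53 to 2.28). Siglech cells were 2.002-fold (1.89 to 2.12), 2.28-fold (2.12 to 2.44) and 2.42-fold (2.15 to 2.72) above resting heavy chain cells. Lower S100a10 and S100a11 were also seen when IkB-deficient Xist cells were set against aged Xist cells, 2.24-fold (1.99 to 2.53) and 2.03-fold (1.70 to 2.42) in resting heavy chain cells.

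S100a13, which takes part in the export of proteins without a signal peptide, was highest in resting cells with neither chain among the B-lineage stages of each library. The young level was 184 CPM, the aged 174 and the IkB-deficient 122. Aged cells were level with young (0.946, 0.873 to 1.03) and IkB-deficient cells 1.51-fold lower (1.41 to 1.63). Cycling cells without a heavy chain held 127, 120.1 and 81.3 CPM, 1.56-fold lower in IkB-deficient cells (1.42 to 1.71), and Siglech cells 153, 160.3 and 88.5 CPM, 1.73-fold lower (1.55 to 1.92). The difference was smaller in resting heavy chain cells (95.4, 109 and 80.0 CPM, 1.19-fold lower, 1.03 to 1.38), and with both chains the interval spanned 1 (0.631 to 1.37). Resting cells with neither chain held 1.93-fold as much as resting heavy chain cells in young (1.77 to 2.11), 1.60-fold in aged (1.46 to 1.76) and 1.52-fold in IkB-deficient cells (1.33 to 1.74), a stage order opposite to that of S100a10 in young cells.

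**Figure D5:**
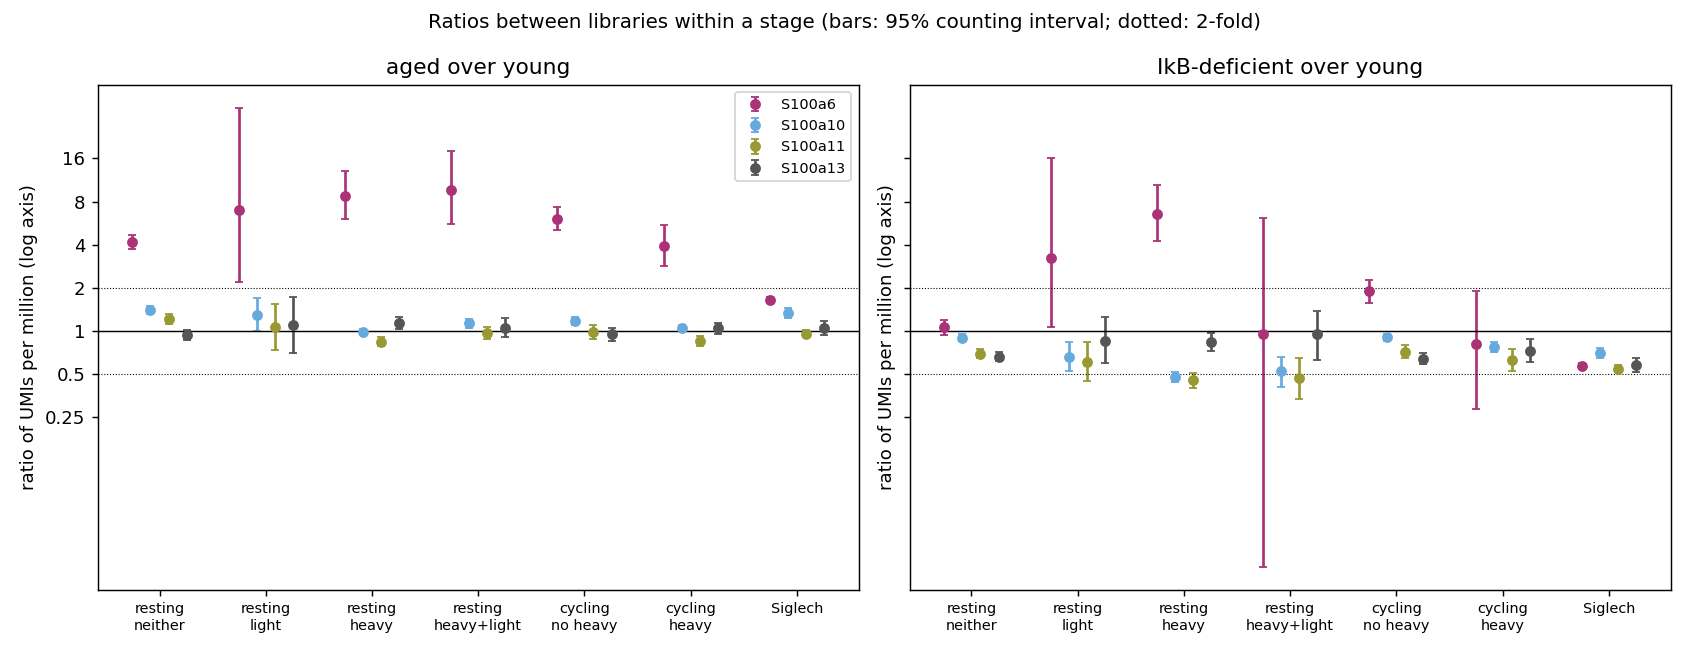
Ratios of CPM within a stage, aged over young at left and IkB-deficient over young at right, for S100a6, S100a10, S100a11 and S100a13 (log axis, bars for the 95% counting interval, dotted lines at 2-fold). At left S100a6 alone lies beyond 2-fold (6.09 in cycling cells without a heavy chain), and at right S100a11 is below 1 in all 7 stages (0.452 with a resting heavy chain).

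A gene was called where its ratio passed 2-fold at a mean of at least 20 CPM over both libraries. Against all measured genes, the aged comparison called few members. With neither chain it called S100a6 alone of 4 measured members as higher, where 0.723% of 6086 measured genes were higher and 0.329% lower. In cycling cells without a heavy chain it again called S100a6 of 4, beside 0.214% higher and 0.25% lower. With a light chain only it called S100a6 of 4, beside 5.17% and 5.01%. No member was called in resting heavy chain cells (3 measured, 0.826% and 0.138% of all genes), with both chains (3, 1.04% and 0.173%), in cycling heavy chain cells (3, 0.0738% and 0.129%) or in the Siglech stage (4, 0.376% and 0.445%). In the 3 heavy chain stages the mean S100a6 level of the young and aged libraries was under 20 CPM, so its ratios there (8.77, 9.68 and 3.92) were not among those counted. No member was called lower in any stage of the aged comparison. These percentages are a background only, since S100a6 was among the genes picked on such values.

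The IkB-deficient comparison called S100a9 of 5 measured members as higher with neither chain, beside 2.65% of all genes higher and 3.19% lower, and S100a8 and S100a9 of 6 in cycling cells without a heavy chain, beside 1.37% and 1.54%. All 3 of those calls were gone without the cells that held 10 or more UMIs of the pair. With a light chain only S100a6 was called of 4, beside 6.99% and 8.26%. With a resting heavy chain S100a10 and S100a11 were called lower of 3 measured, beside 5.11% higher and 3.69% lower, and with both chains S100a11 of 3, beside 6.09% and 4.65%. No member was called in cycling heavy chain cells (3 measured, 2.11% and 1.81%) or the Siglech stage (4, 1.32% and 1.77%). The members' median log2 ratio was -1.04 with a resting heavy chain, against -0.05 over 5857 genes, and -0.78 in the Siglech stage, against 0.02 over 5916 genes. In the aged comparison the same medians were -0.01 (all genes -0.02) and 0.24 (all genes -0.01). In the IkB-deficient Siglech stage 4 of 4 measured members were below 0, and S100a10 in resting heavy chain cells was near the 2-fold line, at 0.481 (0.444 to 0.522), as was S100a10 with both chains on the other side of it, at 0.522 (0.409 to 0.659).

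Of the 10 family genes outside the members, S100a1 alone was measured in any stage, at 29.4 CPM (young), 35.2 (aged) and 12.8 (IkB-deficient) in resting cells with neither chain. It encodes a calcium sensor best known from heart muscle and was 2.30-fold lower in IkB-deficient than young cells (1.88 to 2.80). S100a3 gave 12, 34 and 46 UMIs per library, and each of the 8 others gave at most 4.

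The listed partners of S100 proteins, 19 genes of which 11 to 16 were measured in a stage, were read from the same ratios. In the aged comparison Anxa2, the S100A10 partner, was higher with both chains (9.01 CPM in young, 37.3 in aged, 4.14-fold, 2.91 to 6.00), while S100a10 itself was 1.13-fold higher there (1.06 to 1.21). Anxa1, the S100A11 partner, was higher in aged resting heavy chain cells (19.8 and 53.5 CPM, 2.70-fold, 2.27 to 3.22), where S100a11 was not. Ahnak, a scaffold of the annexin A2 and S100A10 complex, was 2.13-fold higher with neither chain (30.5 and 64.99 CPM, 1.79 to 2.55), and Anxa5 2.60-fold higher with both chains (14.1 and 36.7 CPM, 1.91 to 3.55). The aged comparison called 1 partner of 16 higher with neither chain (0.723% of all measured genes), 1 of 12 with a resting heavy chain (0.826%), 3 of 13 with both chains (1.04%) and 2 of 13 with a light chain only (5.17%). It called none in the other 3 stages and none lower. The partners' median log2 ratio with both chains was 0.09, against -0.03 over all measured genes.

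Cd36, a scavenger receptor that binds calprotectin with its fatty acids, had the widest ratio among the partners in the IkB-deficient comparison. With a resting heavy chain its level was 2.26 CPM (young) and 52.1 (IkB-deficient), 23.1-fold higher (15.2 to 36.4), with both chains 23.8-fold higher (9.77 to 61.8), and with neither chain at 12.7 and 43.6 CPM, 3.44-fold higher (2.68 to 4.47). Anxa5 was 3.68-fold higher with a resting heavy chain (16.8 and 61.6 CPM, 2.99 to 4.53). Anxa4 was 2.003-fold higher with neither chain (22.4 and 44.8 CPM, 1.65 to 2.45). Anxa6 was 2.28-fold lower with both chains (73.5 and 32.2 CPM, 1.26 to 4.61), and Anxa1 2.002-fold lower with neither chain (204 and 102 CPM, 1.86 to 2.15). Of 16 partners measured with neither chain 2 were called higher and 1 lower (all genes 2.65% and 3.19%), and of 14 with a light chain only 3 were called higher and 0 lower (6.99% and 8.26%). With a resting heavy chain 2 of 13 were called higher and 0 lower (5.11% and 3.69%), and with both chains 3 of 13 higher and 1 lower (6.09% and 4.65%). No partner was called in the cycling and Siglech stages. The partners' median log2 ratio with a resting heavy chain was 0.29, against -0.05 over all measured genes.

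Over the 23 combinations of library and stage with at least 50 cells, the genes with the pattern most like S100a6 on the log2(CPM + 5) scale were Alox5ap (Pearson r 0.942), Cd7 (0.935), Gng10, Sept9 and Fcer1g (0.928). The nearest to S100a11 were Ptger4 (0.933), Tln1, Gm2a, Mbnl1 and Capn2 (0.907), to S100a10 Tmsb10 (0.825), Gm9844, Rpl35, Rpl27 and Atox1, and to S100a13 Coro7 (0.853), Myl6, Mast3, Vasp and Rps24. Among the members themselves r was 0.627 for S100a6 and S100a11, 0.606 for S100a6 and S100a13 and 0.0552 for S100a6 and S100a10. Points of 1 library share its depth and mice, and the Siglech and granule gene stages lie far from the others, so these values describe likeness and no more.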

How the data were processed

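Gene expression and V(D)J contigs were measured in 3 groups, 1 library of each kind per group. The deposited matrices hold counts, raw UMIs per gene and barcode, and the authors used Cell Ranger and mm10, per the submitters' processing notes; the matrix headers name software 3.0.1. The deposited contig tables list, per the file headers, UMI and read counts.

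Cells were retained from 500 UMIs and 300 genes up to a mitochondrial share of 10%, and the top-scoring Scrublet cells (0.8% per 1000 cells; 723, 493 and 731) removed, in scanpy 1.11.5. UMIs were summed per library and stage and divided by the stage total, from which 660 antigen receptor genes were left out. Folds are plain ratios of these CPM with exact conditional binomial 95% intervals, levels have exact Poisson and shares Clopper-Pearson intervals, and a count of 0 was given a floor of 3 counts. Log2 ratios had a pseudocount of 5 CPM. Stages needed 50 cells in both libraries. At the stage thresholds, 67, 90 and 117 cells held exactly 3 cycling gene UMIs and 135, 154 and 224 held 2, 14, 44 and 84 held 3 Siglech UMIs and 17, 55 and 74 held 2, and 4, 12 and 15 held 3 granule gene UMIs and 3, 12 and 41 held 2. The ratio intervals were tried on simulated Poisson counts, the same error model that they assume, so spread between cells or mice was not covered. They held the simulated fold for 88% to 98% of genes, depending on the fold and comparison.

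The members and the lists were chosen with earlier results of these data known. Named genes are the 7 members, the other family genes, the 19 partners past 2-fold (up to 6 a comparison, by size) and the 5 genes most like each member. Marker sets numbered 12. With 1 library per group no test was made. Alternatives covered the CPM minimum, scaling, doublets, cell filters, stage thresholds, lineage filters, sex and pseudocounts. Positions and promoter windows are from RefSeq; the protein sequences were not used here.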

Additional observations from a re-analysis of the deposited data

Results flagged for a closer look

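S100a6 differed from young in opposite directions between stages of the IkB-deficient library. It was higher in resting cells with a light chain only (ratio 3.25, from 3 young UMIs) and in cycling cells without a heavy chain (1.89), and lower in the Siglech stage (0.571). In resting cells with a heavy chain only the ratio was 6.57 (95% interval 4.23 to 10.4), at a mean level under 20 CPM. With 1 library per group the difference between these ratios was not tested. Siglech cells of the IkB-deficient library also held less Cox6a2 (675 against 2433 CPM) and Ccr9 (219 against 489 CPM) than young ones, and whether this has a part in the S100a6 value was not tested.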

How the results depend on the processing

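Of 384 recomputed counts of members, 347 were equal to or within 1.5 times the main count and 37 were not. Most main counts were 0, and a 0 that stayed 0 is among the 347, so this tally is no measure of stability. With no CPM minimum the aged comparison gave 2 members higher with neither chain, 1 with a resting heavy chain, 2 with both chains, 2 in cycling cells without a heavy chain, 1 in cycling heavy chain cells and 2 in the Siglech stage, and the IkB-deficient one 2 with neither chain, 1 with a resting heavy chain and 1 in the Siglech stage. With a mean of at least 100 CPM the counts became 0 for aged with a light chain only and cycling without a heavy chain, and 0 for IkB-deficient with neither chain, with a light chain only and cycling without a heavy chain. With doublets kept, 1 member was higher in aged cells with both chains, 0 in IkB-deficient cells with neither chain and 1 in cycling ones without a heavy chain. Y-linked cells alone gave 1 in aged cells with both chains and 1 in the Siglech stage, and the stricter cell filter gave 1 in the aged Siglech stage. For IkB-deficient cells with neither chain the count became 0 with cycling at 5 and resting at 0 UMIs, with surrogate light chain UMIs required, without the 1% of cells with most member UMIs and with the mean over cells. The last 2 settings also gave 0 with a light chain only and 1 in cycling cells without a heavy chain, where leaving out cells with any Siglech or granule gene UMI gave 1 as well. Members lower in IkB-deficient resting heavy chain cells were 1 under median-of-ratios scaling and 1 with the mean over cells, and 0 with both chains without the top 1%. Of the settings chosen after seeing the data, the 4 narrower lineage sets gave 0 higher in IkB-deficient cells with neither chain, with a light chain only and cycling without a heavy chain, and leaving out cells with 10 or more S100a8 and S100a9 UMIs gave 0 with neither chain and 0 cycling without a heavy chain.

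Of 311 log2 ratios, 274 stayed within their counting interval, 34 moved and 3 reversed. Only ratios called in the main setting could count as reversed, and sign changes of others fall among the 274 or the 34. The 3 were all S100a9 in IkB-deficient cells with neither chain, where the main value was 3.14. It became -0.055 with cycling at 5 and resting at 0, -1.10 without cells of another lineage and -0.030 without the cells rich in the pair. Among uncalled ratios, IkB-deficient S100a6 changed sign in cycling heavy chain cells (main -0.10, range -0.22 to 0.61). With both chains it did so too (main -0.03, range -0.61 to 0.33). The aged log2 ratio of S100a6 was above 0 in all 18 settings with neither chain (1.34 to 2.50) and in 17 of 18 with both chains, where it was -0.70 without cells of another lineage. With a resting heavy chain only it was 1.96 and ran from 0.41 to 2.77 over 18 settings. In cycling heavy chain cells it was 1.06 and ran from 0.15 to 1.67, so the size of these ratios depended on the setting. The IkB-deficient log2 ratio of S100a6 with neither chain, 0.08, was above 0 in 16 of 17 settings (-0.04 to 1.64). It was 0.52 with surrogate light chain UMIs required, 0.66 without cells of the 4 narrower sets and 1.64 without cells of another lineage. That last setting, through the plasma and mature B sets, kept 58 IkB-deficient cells with neither chain and fewer than 50 in each other IkB-deficient stage, so it gave no value there. No leave-one-out was possible with 1 library per group, and no paired analysis was possible because each group has a single library.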
